A study of Homo sapiens with 4 samples.

Results

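The 9 genes described here carry out or control antigen presentation by MHC class II: the regulators CIITA and RFX5, the invariant chain gene CD74, the antigen-binding chain genes HLA-DRA, HLA-DRB1, HLA-DQA1 and HLA-DPA1, and the peptide-exchange chain genes HLA-DMA and HLA-DMB. The rule names them by function and uses no measured value, although the set was proposed with earlier results of these data known. They are 9 of 19970 protein-coding genes examined on chromosomes 1 to 22 and X. BCL6, a transcriptional repressor of germinal centre B cells, was mapped by CUT&RUN in nuclei of the SUDHL5 cell line, which derives from a diffuse large B-cell lymphoma (DLBCL), with no treatment, genotype or time named for any sample. CUT&RUN sequences the fragments that a nuclease, tethered to an antibody, cuts free around the protein of interest. The labels give 2 biological replicates with a BCL6 antibody, each with a list of peaks, and 2 with normal rabbit IgG, whose values were not analysed here. A BCL6 peak was assigned to a gene when its summit, the position of highest coverage, lay in the gene or within 20 kb of either end.

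MHC class II molecules are pairs of an alpha and a beta chain that show peptides from the endosome to helper T cells. The invariant chain fills the groove until HLA-DM, itself a pair of HLA-DMA and HLA-DMB, exchanges its remnant for a peptide. Class II promoters share an X box, which is bound by the RFX complex that contains RFX5, and a Y box with a CCAAT core, which is bound by NF-Y, and the co-activator CIITA acts through the factors bound there. In B-cell lymphoma, loss of the acetyltransferase CREBBP is known to lower class II genes, and BCL6 with its co-repressors is known to oppose CREBBP at enhancers.

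Every one of the 9 genes had a peak of at least 1 list in its window. None had, in that window, a region that was found in both lists and was also nearest to that gene. Neither count was made over all protein-coding genes, so only the counts by list that follow have a share beside them. Replicate 1 had a peak at 8 of the 9, HLA-DMB being the one without. Replicate 2 had a peak at 5 of the 9 (CIITA, HLA-DQA1, HLA-DMA, HLA-DMB and RFX5), and had none at CD74, HLA-DRA, HLA-DRB1 and HLA-DPA1. Among all protein-coding genes, 21.2% had a replicate 1 peak and 16.2% a replicate 2 peak by the same rule. A peak of each list was present at 4 of the 9 (CIITA, HLA-DQA1, HLA-DMA and RFX5), against 10.0% of all genes. A shared region, in which a peak of each list overlapped by at least 1 bp, was present at 3 of the 9 (HLA-DQA1, HLA-DMA and RFX5), against 6.89% of all genes. The median length of the 9 genes was 11.1 kb and that of all genes 24.2 kb. Neighbouring genes do not give independent counts, since 6 of the 9 lie together on chromosome 6.

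The promoters of the class II genes are shown because peaks of 1 list overlapped those of HLA-DQA1 and HLA-DMB, while no peak overlapped those of HLA-DRB1 and HLA-DMA. Each is the 250 bases before the annotated start in RefSeq (GRCh38.p14), on the strand of the gene, with every CCAAT or its reverse ATTGG in capitals, as is a stretch, ACTGATGATG, that HLA-DRB1, HLA-DMA and HLA-DMB have in common. HLA-DQA1 is chr6:32637156-32637405 on the plus strand, HLA-DMB is chr6:32941029-32941278, HLA-DRB1 is chr6:32589849-32590098 and HLA-DMA is chr6:32953098-32953347, the last 3 on the minus strand.
HLA-DQA1: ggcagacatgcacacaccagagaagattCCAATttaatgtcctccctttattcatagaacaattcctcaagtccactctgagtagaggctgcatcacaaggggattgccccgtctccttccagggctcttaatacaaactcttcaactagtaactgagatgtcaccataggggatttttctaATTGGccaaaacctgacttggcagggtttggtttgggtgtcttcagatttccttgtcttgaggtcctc
HLA-DMB: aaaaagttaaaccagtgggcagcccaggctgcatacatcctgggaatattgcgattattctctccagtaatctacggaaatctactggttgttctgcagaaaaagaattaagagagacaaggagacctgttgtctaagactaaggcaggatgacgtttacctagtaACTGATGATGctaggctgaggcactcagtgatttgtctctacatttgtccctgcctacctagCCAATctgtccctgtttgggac
HLA-DRB1: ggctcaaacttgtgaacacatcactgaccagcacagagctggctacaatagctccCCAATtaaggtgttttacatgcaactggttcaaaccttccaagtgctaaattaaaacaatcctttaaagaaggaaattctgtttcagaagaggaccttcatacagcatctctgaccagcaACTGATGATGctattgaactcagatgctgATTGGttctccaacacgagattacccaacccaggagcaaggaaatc
HLA-DMA: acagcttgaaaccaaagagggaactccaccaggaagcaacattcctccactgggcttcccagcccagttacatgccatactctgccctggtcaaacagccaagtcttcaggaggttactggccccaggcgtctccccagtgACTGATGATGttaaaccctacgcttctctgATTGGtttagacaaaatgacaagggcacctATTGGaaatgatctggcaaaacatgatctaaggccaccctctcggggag

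The promoter table held 7 of the 9 genes, with 10 promoters in all, and not CIITA or HLA-DRA. CCAAT was found on either strand in 6 of the 10 promoters, 1 in each of 6 genes (RFX5, CD74, HLA-DRB1, HLA-DQA1, HLA-DMB and HLA-DMA) and in 32.0% of all 34943 promoters of that length. In HLA-DQA1 an ATTGG ran from 68 to 64 bases before the start, in HLA-DRB1 from 46 to 42, and in HLA-DMA 1 copy ran from 79 to 75 and another from 49 to 45. The stretch ACTGATGATG, singled out after the sequences were seen, was in 25 of the 34943 promoters (0.0715%), 3 of them those of HLA-DRB1, HLA-DMA and HLA-DMB. In HLA-DRB1 19 bases separated it from the next ATTGG, and in HLA-DMA 20. HLA-DMB had no ATTGG: there the stretch ran from 84 to 75 bases before the start, and the only CCAAT from 22 to 18. The loose BCL6 motif TTCNNNGAA, which is its own reverse, was found in HLA-DQA1 alone among the 7, from 200 to 192 bases before the start, and in 6.56% of all promoters. The stricter TTCCTNGAA was in none of the 10 promoters and in 1.37% of all. TAGCAAC, a form of the X box, was likewise in none of the 10 and in 2.41% of all. No other form of that box was searched for, so the lack of TAGCAAC does not show that these promoters lack an X box. Whether ACTGATGATG belongs to an X box was not tested. TGACG, the core of a CREB site, was in those of RFX5, HLA-DMB and HLA-DPA1 and in 21.2% of all. All motifs were searched on both strands, and the motifs overlap no other in the 4 printed promoters.

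Across the 9 windows, 15 peaks of replicate 1 and 8 of replicate 2 formed 20 distinct regions, of which 12 were in replicate 1 only, 5 in replicate 2 only and 3 in both lists. A region in the windows of both HLA-DMA and HLA-DMB was counted once, which applied to 2 regions. The authors' fold enrichment, the ratio of summit coverage to local background, ran from 2.30 to 8.66 with a median of 3.16 in replicate 1, where the median of the whole list was 3.55. In replicate 2 it ran from 2.25 to 6.65 with a median of 3.73, against 3.74 for the list. By fold enrichment, 7 of 15 in replicate 1 and 4 of 8 in replicate 2 lay above the median of their list. Summit pileups, the numbers of fragments over the summit solved from the authors' fold enrichment and p, ran from 12 to 58 in replicate 1 (list median 23) and from 15 to 62 in replicate 2 (list median 21). Most rest on few fragments, and a pileup of 24 has an exact Poisson 95% interval of 15.4 to 35.7. Of the replicate 1 peaks 3 of 15 (20.0%) overlapped a replicate 2 peak, where 25.8% of the whole list did, and of the replicate 2 peaks 3 of 8 (37.5%), where 38.5% did.

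**Figure D1:**
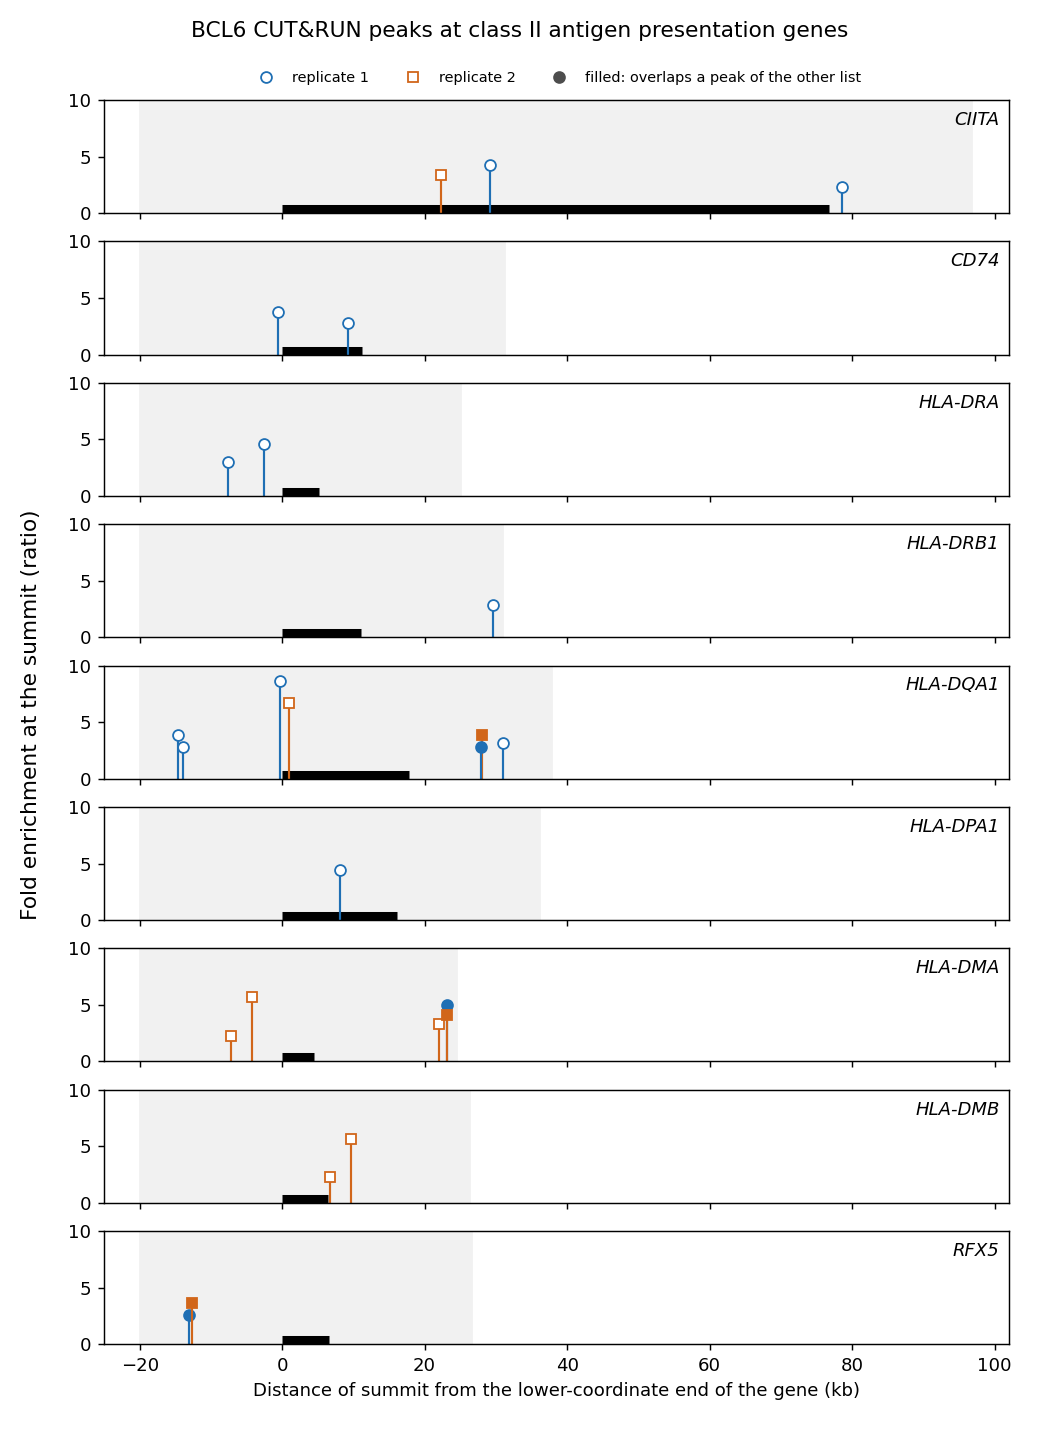
Fold enrichment at each BCL6 summit (vertical axis, a ratio) against its distance in kb from the lower-coordinate end of the gene (horizontal axis), for the 9 genes. Black bars are genes, grey areas the gene with 20 kb on both sides, circles replicate 1, squares replicate 2, and filled symbols peaks that overlap one of the other list; filled symbols appear at HLA-DQA1, HLA-DMA and RFX5 only, each away from the gene itself.

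CIITA, the master co-activator of class II genes (Gene ID 4261), spans 76.8 kb of chromosome 16 from 10866206 to 10943021 and had 3 peaks, none of them overlapping. The replicate 1 peak from 10895154 to 10895483 had its summit inside the gene, 29.2 kb from the lower end, with a fold enrichment of 4.24, a −log10 q of 3.04 and a pileup of 12 (6.20 to 21.0). The replicate 2 peak from 10888463 to 10888964 was also inside, 22.3 kb from that end, with 3.40, a −log10 q of 2.24 and a pileup of 15 (8.40 to 24.7). These peaks are 6189 bp apart, so each list marks the gene body at a position of its own. A second replicate 1 peak lay 1750 bp beyond the upper end, with a fold enrichment of 2.30, and its summit was inside CLEC16A, 207 bp from the end of that gene. Its −log10 q was 1.61, where the lowest in the list was 1.31.

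RFX5, the DNA-binding subunit of the RFX complex (Gene ID 5993, chromosome 1 from 151340640 to 151347252, minus strand), had 1 shared region and no other peak. The region spanned 151327499 to 151328154, with fold enrichments of 2.60 in replicate 1 and 3.65 in replicate 2, −log10 q of 4.10 and 5.08, and pileups of 40 (28.6 to 54.5) and 27 (17.8 to 39.3). Its summits were 13.0 and 12.7 kb beyond the lower end of RFX5. They lay 117 and 241 bp from an end of PI4KB, a phosphatidylinositol kinase gene, so this region is much closer to PI4KB than to RFX5.

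CD74, which encodes the invariant chain (Gene ID 972, chromosome 5 from 150401639 to 150412910, minus strand), had 2 peaks in replicate 1. The peak from 150410843 to 150411701 had its summit inside the gene, 2012 bp downstream of the start, with a fold enrichment of 2.81, a −log10 q of 3.34 and a pileup of 29 (19.4 to 41.6). The peak from 150400768 to 150401183 had its summit 526 bp beyond the lower end, which is the 3′ end, with 3.73, a −log10 q of 3.12 and a pileup of 16 (9.15 to 26.0). No replicate 2 summit lay closer than 288 kb to CD74, so both peaks stand in replicate 1 alone.

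Among the antigen-binding chains, HLA-DQA1 (Gene ID 3117, chromosome 6 from 32637406 to 32655272, plus strand) had the most peaks, 5 in replicate 1 and 2 in replicate 2. The replicate 1 peak from 32636933 to 32637271 covered 116 bases of the printed promoter, with its summit 268 bp upstream of the start. Its fold enrichment of 8.66 ranked 37 of 5237 in the list, with a −log10 q of 18.8, a pileup of 33 (22.7 to 46.3) and a local background of 2.93. Replicate 2 had no peak over it. Its own peak, from 32638173 to 32638482, had its summit inside the gene, 909 bp downstream of the start, with a fold enrichment of 6.65 that ranked 140 of 3536, a −log10 q of 7.48 and a pileup of 16 (9.15 to 26.0). The peaks lay 901 bp apart, and each was the strongest of its list, by fold enrichment, in the windows of the 9 genes. By fold enrichment, both lists therefore placed their strongest peak in these windows within 1 kb of the HLA-DQA1 start, on opposite sides of it. By −log10 q this holds in replicate 1 only, since 2 other replicate 2 peaks in the windows had larger values, 15.7 and 12.7. At a −log10 q of 10 or more, 69.8% of all replicate 1 peaks had a replicate 2 peak over them (Wilson 95% interval 65.6 to 73.7), and this one did not. Of the 2 replicate 1 peaks that strong in the windows, 1 did, and so few cannot be set against that share.

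Upstream of HLA-DQA1, replicate 1 had summits at 14.6 and 13.9 kb from the start, with fold enrichments of 3.85 and 2.80. Beyond its 3′ end, a shared region from 32664711 to 32665494 had summits 26 bp apart, with fold enrichments of 2.82 in replicate 1 and 3.82 in replicate 2 and pileups of 24 (15.4 to 35.7) and 17 (9.90 to 27.2). This region was 10.1 kb from HLA-DQA1 but inside HLA-DQB1, which encodes the partner beta chain, 1271 and 1245 bp downstream of its start. A further replicate 1 peak, with a fold enrichment of 3.16, had its summit 1742 bp upstream of HLA-DQB1.

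HLA-DRA, the nearly invariant DR alpha chain (Gene ID 3122, chromosome 6 from 32439887 to 32445046), had 2 replicate 1 peaks beyond its lower end. The nearer one, from 32436991 to 32437473, had its summit 2490 bp from that end, with a fold enrichment of 4.57, a −log10 q of 6.66 and a pileup of 24 (15.4 to 35.7). The farther one, at 7623 bp, had 3.04, a −log10 q of 2.12 and a pileup of 17 (9.90 to 27.2). The nearest replicate 2 summit was 42.2 kb from HLA-DRA.

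HLA-DRB1, the DR beta chain (Gene ID 3123, chromosome 6 from 32578775 to 32589848, minus strand), had 1 peak, in replicate 1, with its summit 18.6 kb upstream of the start, a fold enrichment of 2.83 and a pileup of 24 (15.4 to 35.7). A much stronger shared region lay just outside the window, from 32609402 to 32610261, with summits 20.2 kb upstream in both lists. Its fold enrichments were 5.17 in replicate 1 and 5.46 in replicate 2, its −log10 q 18.5 and 15.8, and its pileups 55 and 45. This region is 27.3 kb upstream of HLA-DQA1, between both genes, and HLA-DRB1 is the nearest protein-coding gene. Its place outside the window follows from the 20 kb limit alone: the summits missed it by 232 and 247 bp.

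HLA-DPA1, the DP alpha chain (Gene ID 3113, chromosome 6 from 33064569 to 33080748, minus strand), had 1 peak, in replicate 1, from 33072411 to 33072845. Its summit was inside the gene, 903 bp downstream of the nearer of 2 annotated starts. It lay 3244 bp upstream of HLA-DPB1, the DP beta chain, which overlaps the upper end of HLA-DPA1 by these coordinates. The fold enrichment was 4.46, the −log10 q 5.61 and the pileup 21 (13.0 to 32.1). The nearest replicate 2 summit was 67.4 kb away.

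HLA-DMB (Gene ID 3109, chromosome 6 from 32934636 to 32941028, minus strand) and HLA-DMA (Gene ID 3108, from 32948618 to 32953097, minus strand) are neighbours, and between them replicate 2 had 2 peaks. The peak from 32944153 to 32945496 had its summit 3342 bp upstream of HLA-DMB and 4248 bp beyond the 3′ end of HLA-DMA, with a fold enrichment of 5.66, a −log10 q of 12.7 and a pileup of 35 (24.4 to 48.7). The peak from 32941179 to 32941511 covered 100 bases of the printed HLA-DMB promoter, with its summit 366 bp upstream of the start, but it was weak, with 2.25, a −log10 q of 1.94 and a pileup of 33 over a local background of 14.1. Replicate 1 had no summit closer to HLA-DMB than 30.8 kb. Of all replicate 2 peaks that strong (−log10 q of 10 or more) 84.7% (80.4 to 88.2) were found in replicate 1 too, and the one between HLA-DMB and HLA-DMA was not. Of the 2 replicate 2 peaks that strong in the windows, 1 was, again too few to set against that share.

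Upstream of HLA-DMA, a shared region from 32971307 to 32971958 had summits 18.7 kb from the start. Its fold enrichments were 4.996 in replicate 1 and 4.148 in replicate 2, its −log10 q 18.7 and 15.7, and its pileups of 58 (44.0 to 75.0) and 62 (47.5 to 79.5) were the highest of all 23 peaks. The summits were 1 bp apart. They lay inside BRD2, which encodes a bromodomain protein that binds acetylated histones, 3.22 kb from an end of that gene. A replicate 2 peak 256 bp away, with a fold enrichment of 3.31, had its summit inside BRD2 as well. All 3 shared regions in the windows were thus nearest to another gene (PI4KB, HLA-DQB1 and BRD2). Of the 20 regions 14 were nearest to 1 of the 9 genes, each of those 14 in a single list. Being in a single list is not particular to these genes. In the whole lists, only 25.8% of replicate 1 peaks and 38.5% of replicate 2 peaks overlapped one of the other list.

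**Figure D2:**
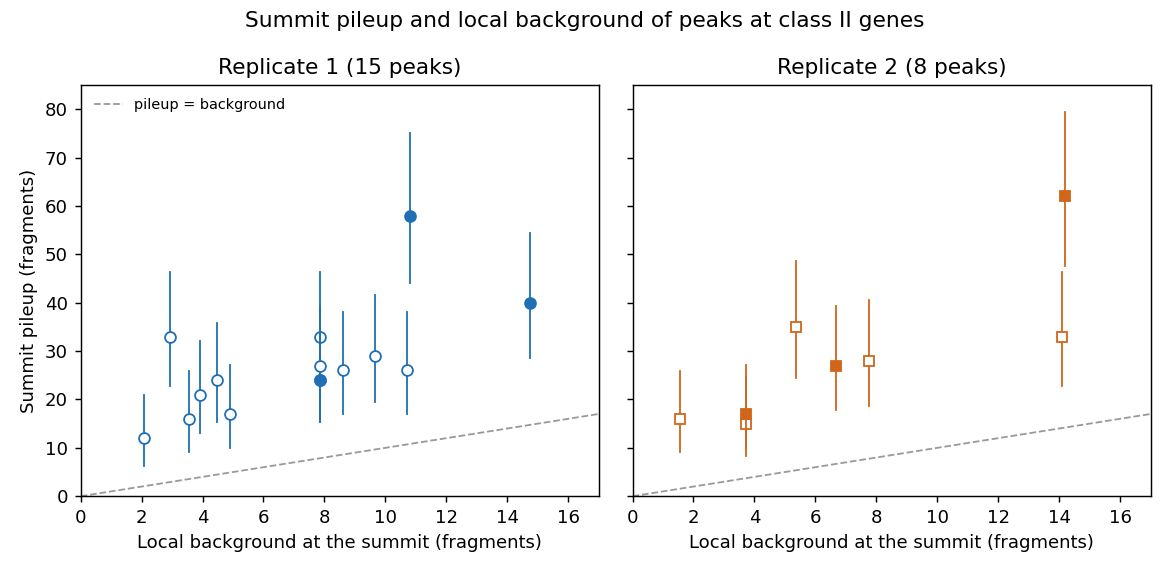
Summit pileup (vertical axis, fragments) against the local background at the summit (horizontal axis, fragments) for the 15 replicate 1 peaks and the 8 replicate 2 peaks at the 9 genes, with exact Poisson 95% intervals as vertical lines. Filled symbols are peaks that overlap one of the other list; the highest in each panel is the BRD2 region in the HLA-DMA window, with pileups of 58 and 62.

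The whole stretch of chromosome 6 from the lower end of HLA-DRA to the upper end of HLA-DPB1, 649.8 kb from 32439887 to 33089696, held 19 summits of replicate 1 and 11 of replicate 2. This is 29.2 and 16.9 per Mb, where chromosomes 1 to 22 and X held 1.73 and 1.17 per Mb between their first and last gene. Of 4643 consecutive windows of the same length, 7 (0.151%) held at least 19 replicate 1 summits and 15 (0.323%) held at least 11 of replicate 2. The fullest held 56 and 45, and the median window held 0 of either list. The windows were not matched to this stretch for the number of genes they hold, so the part of gene density was not tested. The 30 summits formed 24 regions, 6 of them shared, of which 4 lay outside the windows of the 9 genes. Of these 4, 1 was the region between HLA-DRB1 and HLA-DQA1, 2 were inside HLA-DOB, which encodes a chain that restrains HLA-DM, and 1 was at PSMB8, a subunit of the immunoproteasome.

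Within this stretch the peaks were uneven. From the lower end of HLA-DRA to the first summit beyond HLA-DRB1 no peak of either list was called over 168.5 kb, which includes HLA-DRA, HLA-DRB5 and HLA-DRB1. A second gap of 125.4 kb holds HLA-DQA2 and HLA-DQB2. The number of DRB genes and the sequence of the class II genes are known to vary between people, how fragments matching several copies were treated is not given in the sources used here, and the part of mapping in these gaps and in the differences between lists was not tested. A replicate 1 peak with a fold enrichment of 7.22 and a −log10 q of 14.5 lay 20.2 kb from HLA-DOA, outside every window of the 9 genes and absent from replicate 2.

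**Figure D3:**
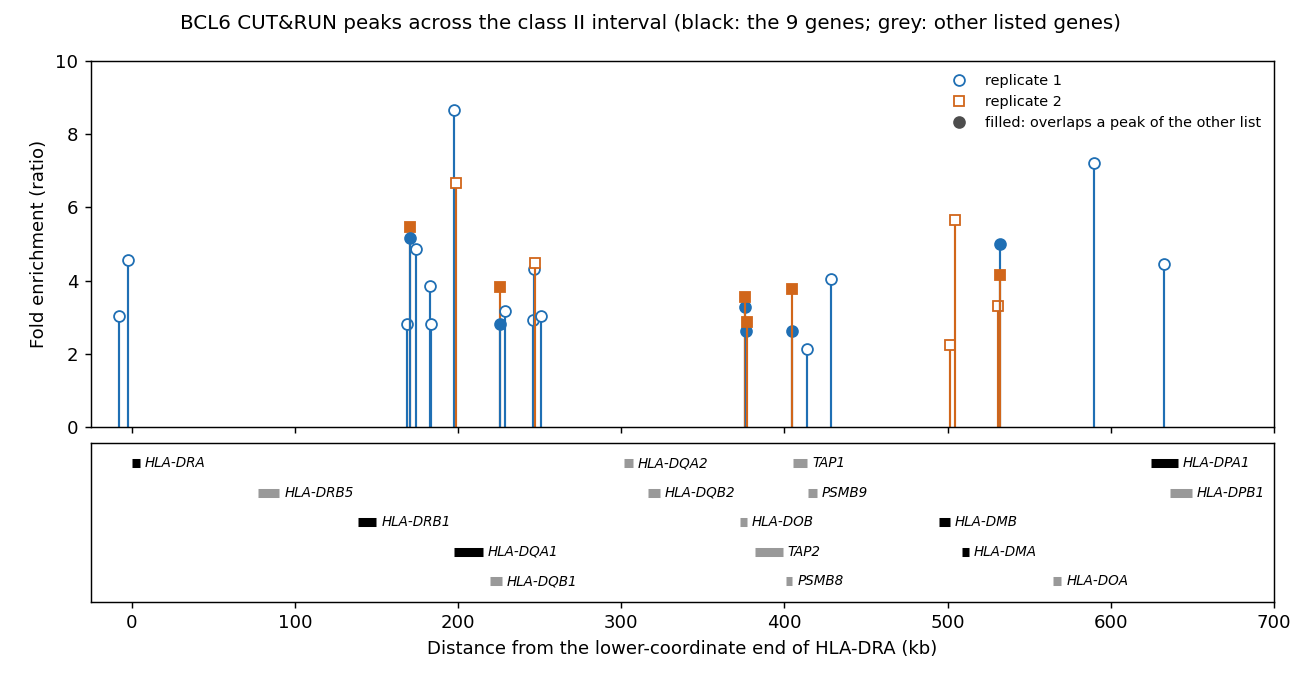
Fold enrichment (vertical axis, a ratio) of every BCL6 peak across the class II stretch of chromosome 6, against distance in kb from the lower-coordinate end of HLA-DRA, with genes drawn to scale beneath. Black genes are among the 9, grey ones are other listed genes, and filled symbols overlap a peak of the other list; the tallest symbols of both lists stand at HLA-DQA1, and none stands over HLA-DRA, HLA-DRB5 or HLA-DRB1.

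The other genes of the pathway were described from 6 lists of 53 genes. By the same rule, 21.2% of all protein-coding genes had a replicate 1 peak and 16.2% a replicate 2 peak. A peak in each list was present at 10.0% and a shared region at 6.89%. Of the 7 other class II chains, 3 had a replicate 1 peak and 2 a replicate 2 peak, and HLA-DQB1 and HLA-DOB had shared regions. At HLA-DOB a region had fold enrichments of 3.28 and 3.55 at 1067 and 1079 bp downstream of the start, and a second had 2.63 and 2.87 at 579 and 149 bp. HLA-DPB1 had the replicate 1 peak that it shares with HLA-DPA1, and HLA-DRB5, HLA-DQA2, HLA-DQB2 and HLA-DOA had none.

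Of the 6 further factors of class II promoters, 3 had a replicate 1 peak and 2 a replicate 2 peak, against 21.2% and 16.2% of all genes. NFYA, a subunit of NF-Y, had a shared region 735 and 810 bp upstream of its start, with fold enrichments of 3.59 and 3.24. Both summits of that region lay inside the neighbouring gene OARD1. NFYC had peaks of both lists that did not overlap, the strongest in replicate 2 with 5.14, and CREB1 had peaks in replicate 1 only, the strongest with 3.86. RFXANK and RFXAP, the partners of RFX5, and NFYB had none.

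Of the 6 regulators of CIITA, 5 had a peak in each list, against 10.0% of all genes, SPI1 being the one without. The median length of the 6 was 34.4 kb and that of all genes 24.2 kb. IRF8, a B cell and myeloid regulator, had 2 shared regions inside the gene, with fold enrichments of 3.19 and 5.47 in the first. The second held a replicate 1 peak of 5.13 and 2 replicate 2 peaks of 2.83 and 3.55. PRDM1, which encodes the plasma cell repressor of CIITA, had 1 shared region, and IRF1 and PAX5 had peaks of both lists that did not overlap.

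Of the 9 genes of endosomal processing and class II turnover, 3 had a replicate 1 peak and 2 a replicate 2 peak. Among all genes the shares were 21.2% and 16.2%. CTSS, the protease that trims the invariant chain, had a shared region inside the gene, 732 and 546 bp from its upper end, with fold enrichments of 3.69 and 2.63. MARCHF1, a ubiquitin ligase that removes class II molecules from the surface, had 4 shared regions inside the gene, with fold enrichments from 2.59 to 4.71. It is a long gene, with summits up to 141.8 kb from the nearer gene end. The median length was 35.6 kb for these 9 genes and 24.2 kb for all genes. CTSB had peaks in replicate 1 only, and CTSL, CTSD, LGMN, IFI30, SPPL2A and MARCHF8 had none.

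Of the 19 genes of class I presentation, 10 had a peak in each list (10.0% of all genes) and 8 had a shared region (6.89% of all genes). The 8 were TAP1, TAP2, PSMB8, PSMB9, NLRC5, ERAP1, ERAP2 and PDIA3. Of these, 4 (TAP1, TAP2, PSMB8 and PSMB9) share the region at PSMB8. TAP2 also counts those in HLA-DOB, and ERAP1 and ERAP2 share another region. The PDIA3 region had its summits 3.50 to 3.96 kb beyond the upper end of PDIA3, inside ELL3 and SERF2. NLRC5, the class I counterpart of CIITA, had summits 168 and 178 bp inside its lower end, with fold enrichments of 3.72 and 4.30. B2M, the light chain of class I, had a replicate 2 peak 997 bp downstream of its start with 5.42, and no replicate 1 peak over it. HLA-B, HLA-C, HLA-E, HLA-F, HLA-G, PSMB10, CALR and CANX had no peak. TAPBP had peaks of both lists that did not overlap, the strongest with 3.90. That strongest peak had its summit inside WDR46, 11.3 kb beyond the lower end of TAPBP. Of 6 markers of other antigen presenting cells 1 had a replicate 1 peak (LYZ, 4.95) and 1 a replicate 2 peak (CD1C, 3.23). The first summit lay 10.3 kb beyond the lower end of LYZ. The second was inside CD1B, 3.84 kb beyond the lower end of CD1C. Among all genes the shares were 21.2% and 16.2%. Peak lists hold no expression values, so the cell type given by the labels was not checked.

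**Figure D4:**
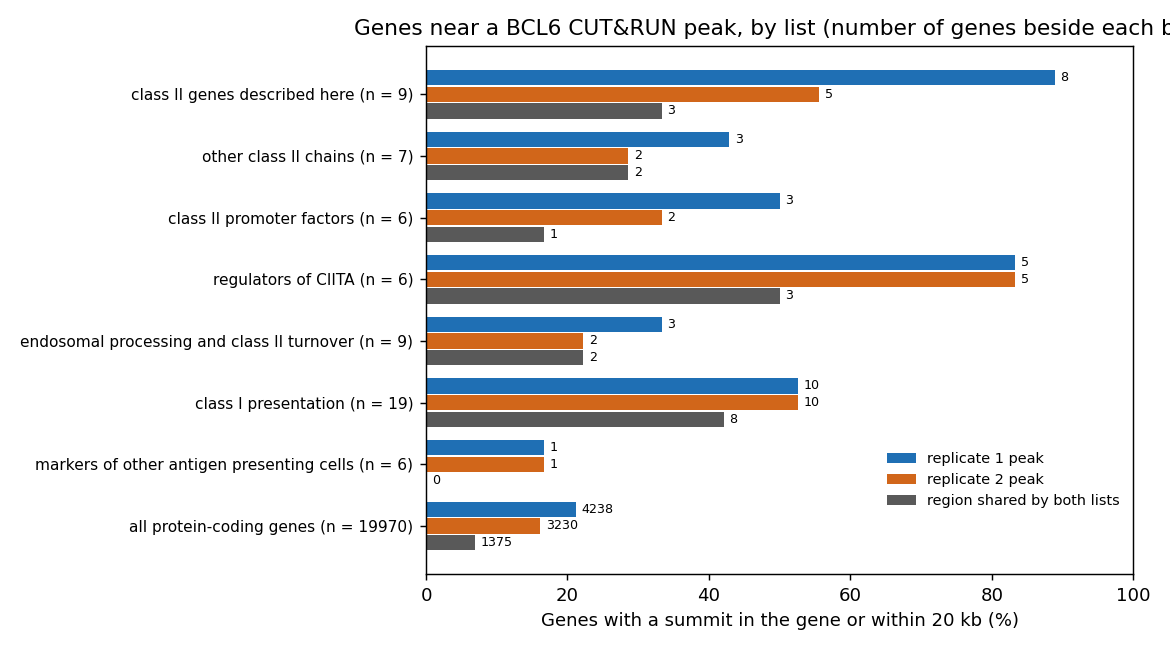
Share of genes with a BCL6 summit in the gene or within 20 kb (horizontal axis, %), for the 9 class II genes, 6 lists of related genes and all protein-coding genes, with the number of genes beside each bar. Bars show replicate 1, replicate 2 and regions shared by both lists; among the 9 genes the bars stand at 8, 5 and 3 genes, and neighbouring genes can count the same region.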

How the data were processed

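Per the submitters' processing notes, the reads were processed on hg38 with MACS2, Bowtie2, cutadapt, Picard, SAMtools, FastQC, deepTools and bedtools. What the sources used here do not give is the versions, the settings, the control library and the handling of multiply mapping reads. Of each BCL6 replicate the authors deposited 1 peak list (5237 and 3536 peaks), called per sample, with positions, the fold enrichment (a ratio), −log10 p and −log10 q of each summit. The deposited score column is 10 times the −log10 q and was not used. Library depth is unknown.

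Genes came from RefSeq (GRCh38.p14, the assembly of hg38). Summits are the peak start plus the summit offset. Peaks sharing at least 1 bp were merged. Pileup and background were solved from fold enrichment, taken as (pileup + 1) / (background + 1), and the Poisson p. The solver recovered 500 of 500 simulated pileups, and solved 5233 and 3532 deposited peaks within 0.001. Intervals (95%) cover counting error only. Python 3.11.15, pandas 2.3.3 and SciPy 1.17.1 were used.

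With 1 condition and 2 libraries with values there was no group to compare and no test was run. All 9 genes were named whatever their values, and of the lists those with a shared region and up to 4 others with the largest fold enrichment. Some genes that this rule names are not reported here. The members and lists were chosen with earlier results of these data known, so no list is independent evidence. Alternatives were other windows, −log10 q minimums, overlap rules and single replicates.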

Additional observations from a re-analysis of the deposited data

How the results depend on the processing

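The number of the 9 genes with a peak depended on the window and on the peak threshold. With a window of 10 kb, 5 had a replicate 1 peak, 2 a peak in each replicate and 0 a shared region, with 12 distinct regions, where 17.7% of all genes had a replicate 1 peak, 8.05% a peak in each and 5.79% a shared region. With 50 kb, 7 had a peak in each replicate and 5 a shared region, with 32 regions, against 15.6% and 10.2% of all genes. For gene bodies alone, 3 had a replicate 1 peak, 2 a replicate 2 peak, 1 a peak in each and 0 a shared region, with 5 regions, against 10.9%, 8.10%, 4.53% and 3.43% of all genes, and 9 of the listed pathway genes had a shared region, against 16 with 20 kb. With a −log10 q of at least 5 these counts were 4 for replicate 1, 2 for each replicate, 1 for shared regions and 8 regions, with 3 pathway genes, against 9.60% of all genes for replicate 1, 3.72% for each and 3.01% for shared regions. With at least 10 they were 2 for replicate 1, 2 for replicate 2, 1 for each and 1 for shared regions, with 3 regions and 0 pathway genes. At that minimum 3.23% of all genes had a replicate 1 peak, 2.23% a replicate 2 peak, 1.58% a peak in each and 1.54% a shared region. The 1 gene left with a shared region at either minimum was HLA-DMA, through the region inside BRD2. Reciprocal overlap of at least 50% left 1 gene with a shared region, RFX5, and summits within 200 bp left 2, HLA-DQA1 and HLA-DMA, so no gene passed both rules. Leaving out 1 replicate gave 8 regions without replicate 1 and 15 without replicate 2. Counting any base of the peak in place of the summit kept the counts within 1.5 times and gave 4 genes with a shared region, HLA-DRB1 being added. The share of all genes was not computed for the overlap rules or for any base. The counts under those rules therefore cannot be set against all genes. Few fragments underlie most peaks, so the lack of a peak at a gene does not show that BCL6 was absent. No paired analysis was possible because the IgG libraries that share the replicate numbers were not analysed here and no test was run.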
